A study of Sus scrofa with 50 samples.

Results

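The genes described are 44 plasma proteins that the liver is known to secrete: carriers, apolipoproteins, fibrinogen, clotting factors and the inhibitors that restrain them. They were picked by name from a table of 35133 genes, of which 14532 are Swiss-Prot entries and the rest transcripts with no entry. The level of an entry is the sum over the transcripts whose best protein match it is. The names follow Swiss-Prot, so ALBU is albumin. RNA was sequenced from 5 ET-type and 5 L-type Korean minipigs (Sus scrofa), and each animal gave 1 library of liver, lung, kidney, spleen and heart. Values of 5 livers or other samples are listed throughout by animal, ET-type in the order S0235, S0242, S0276, S0309, S0326 and L-type in the order S0349, S0355, S0377, S0384, S0385. No treatment was named, and age, sex and diet were not in the labels used here, so none of these can be told apart from the type. Levels are TPM, an abundance corrected for transcript length and scaled to the same total in every library, so genes can be set side by side, but each value is a share of its own library.

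Hepatocytes, the main cells of the liver, release most of the protein that circulates in blood plasma. Carriers such as albumin and transferrin bind hormones, metals and fatty acids, and apolipoproteins package fat into particles that receptors can recognise. In clotting, a chain of proteases that circulate in an inactive form ends with thrombin, which turns fibrinogen into fibrin; antithrombin and protein C hold the chain back, and plasmin dissolves the clot.

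A sum over an entry rests on how the assembly split the gene. The 44 genes had 120 transcripts in all, 10 of them had 1 transcript, and PLMN (plasminogen) had the most with 11. In 28 genes a single transcript held at least 90% of the liver level, and the lowest such share was 50.1%, in FA9 (factor IX). For 22 genes the highest liver transcript matched the pig protein itself, and the median identity of the highest transcripts was 89.5%. The weakest match was that of FA7 (factor VII), whose highest liver transcript shared 56.3% of residues with the bovine protein. Close relatives that share a best match are pooled in these sums.

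A pair of libraries stood apart and are given with and without below. The spleen of L S0377 also stood apart for some genes. It held 53.1 TPM of ALBU, 8.55 TPM of APOC3, 7.31 TPM of FIBB and 2.93 TPM of RET4. The other 9 spleens held at most 4.71, 0.799, 1.17 and 0.362 TPM of these. For APOA1 that spleen lay within the range of the others. In the liver of ET S0326, transcripts of mitochondrial genes took 26.4% of all TPM, against 6.58 to 10.3% in the other 9 livers, and this liver was the lowest of 10 for 23 of the 44 genes. The kidney of ET S0235 held less than 1 TPM of KNG1, FA9, PROC, HRG, AMBP, TTHY and FIBB, which each of the other 9 kidneys held above 1 TPM. In that kidney 5 lymphocyte markers summed to 1288 TPM, against 10.2 to 28.3 TPM in the other 9, 5 macrophage markers to 124.6 TPM, against 8.65 to 64.6 TPM, and 4 endothelial markers to 172 TPM, against 24.5 to 75.8 TPM. All 6 hepatocyte markers that were found were higher in liver than in the other tissues. Their summed level was 1998 to 3236 TPM in ET-type livers and 2591 to 6153 TPM in L-type livers. The markers did not share a direction between types. The ET minus L difference on log2(TPM + 1) was -0.70 for CPSM, -1.62 for G6PC1, -1.39 for ARGI1 and -0.22 for OTC. For ASGR1 it was 0.15 and for ASGR2 0.10, both within their SE of 0.24. The sum thus does not stand for every marker. In the same livers, bile duct markers summed to 6.46 to 109 TPM in the ET type, with the highest value in S0326, and to 4.52 to 29.0 TPM in the L type. The part of any of these in the results was not tested, and in bulk tissue fewer cells of a type and less RNA per cell cannot be told apart.

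The 44 genes took 22.8 ± 4.09% of all TPM in liver (mean ± SD, n = 10), and ALBU alone took 11.5 ± 3.34%. Outside liver their sum was small, between 0.0771 and 0.316% of TPM in lungs, 0.0424 and 0.122% in kidneys, 0.0345 and 0.0832% in spleens and 0.00565 and 0.0249% in hearts. Of the 10 highest genes of the liver 4 were among them, and 20 of the highest 100. The share of TPM held by the group was 22.6, 28.6, 21.0, 25.1 and 13.3% in ET-type livers, against 26.7, 23.1, 23.2, 23.6 and 21.5% in L-type livers. The ranges overlapped, and the lowest share of the 10 was that of ET S0326.

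Among the carriers, ALBU (albumin, the main protein of plasma) had 117988, 174596, 90329, 131087 and 55175 TPM in ET-type livers, against 152203, 89308, 110852, 114907 and 115244 TPM in L-type livers. The types overlapped over most of their range. TRFE (transferrin, which carries iron) had 9279, 15603, 6649.6, 9469 and 2582 TPM in ET-type livers, against 10828, 6452, 9111, 7524 and 5989 TPM in L-type livers. ET-type livers held both its highest and its lowest level. HPT (haptoglobin, which binds free haemoglobin) averaged 7069.9 ± 2795 TPM, HEMO (haemopexin, which binds haem) 4279 ± 930.3 TPM and CERU (ceruloplasmin, a copper protein) 699 ± 342 TPM over the 10 livers. RET4, the carrier of retinol, averaged 2747 ± 736 TPM, and TTHY (transthyretin), its partner in plasma that also carries thyroid hormone, 2567 ± 792 TPM. AMBP, the precursor of alpha-1-microglobulin and bikunin, was the steadiest carrier at 2576 ± 321 TPM, a coefficient of variation of 12.5%. FETUA (fetuin-A, which keeps calcium phosphate in solution) averaged 748 ± 259 TPM.

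Of the apolipoproteins, APOE (a ligand of lipoprotein receptors) was the highest. Its level was 14675, 17232, 24092, 13395 and 16887 TPM in ET-type livers, against 18398, 20337, 17749.8, 22453 and 12039 TPM in L-type livers. The types overlapped, and the lowest liver held 12039 TPM. APOH (beta-2-glycoprotein I) had 7571, 6744, 10190.1, 7928 and 6257 TPM in ET-type livers, against 6779.7, 7377, 7908, 6423 and 7319 TPM in L-type livers. Its levels lay within 1.63-fold of each other over all 10 livers, and the types overlapped. APOA1, the main protein of high-density lipoprotein, averaged 7388 ± 2727 TPM, APOC3 (which slows the clearance of fat-rich particles) 6115 ± 1421 TPM, APOC2 (the activator of lipoprotein lipase) 1559.6 ± 409 TPM and APOA2, also of high-density lipoprotein, 1141 ± 275 TPM. APOB, the backbone of low-density lipoprotein, averaged 459.6 ± 199 TPM. APOA4, best known as an intestinal apolipoprotein, varied the most of all 44 genes, from 14.1 to 2475 TPM, a 176-fold range and a coefficient of variation of 175%.

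Fibrinogen is built from 3 chains. FIBB (beta chain) had 13342, 12558, 12324, 24252 and 5095 TPM in ET-type livers, against 15258, 25918, 13565, 17169.5 and 14122 TPM in L-type livers. Highest were L S0355 and ET S0309, and ET S0326 was lowest, so the types overlapped. FIBA (alpha chain) averaged 6966 ± 2476 TPM and FIBG (gamma chain) 2211 ± 1084 TPM. The 3 chains together took 2.45 ± 0.945% of liver TPM (SD, n = 10).

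The clotting factors themselves were far lower, 0.354 ± 0.0343% of liver TPM for all 8 (SD, n = 10), and spanned a wide range among themselves. THRB (prothrombin) averaged 1005 ± 166 TPM, FA12 (factor XII, the start of the contact pathway) 959 ± 435 TPM, KNG1 (kininogen, its cofactor and the source of bradykinin) 799 ± 223 TPM and FA9 (an activator of factor X) 496 ± 161 TPM. Next came FA10 (factor X, which activates prothrombin) with 158 ± 23.1 TPM and FA5 (factor V, its cofactor) with 67.9 ± 18.98 TPM. FA11 (factor XI, which activates factor IX) averaged 40.0 ± 24.3 TPM. The entry FA7, the factor that starts clotting together with tissue factor, was the lowest of the 44 in liver, at 13.8 ± 9.44 TPM. Its highest liver transcript was the weak match named above, at 56.3% identity. A transcript that matches 417 residues of factor VII gave 0.395% of the liver level. Whether the liver level is that of factor VII itself is thus not known.

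The anticoagulant and fibrinolytic genes lay closer together. IPSP (protein C inhibitor), PLMN (the precursor of plasmin) and HRG (histidine-rich glycoprotein, which binds heparin and plasminogen) averaged 1598 ± 435, 1556 ± 410.2 and 1517 ± 804 TPM. HEP2 (heparin cofactor 2) and ANT3 (antithrombin), both thrombin inhibitors, averaged 639 ± 187 and 617 ± 139 TPM. PROC (protein C) averaged 617 ± 89.6 TPM, A2AP (alpha-2-antiplasmin, the inhibitor of plasmin) 598 ± 143 TPM and PROS (protein S, the cofactor of protein C) 233 ± 59.7 TPM. PROC had the narrowest range of the 44 genes, with the 10 livers within 1.45-fold of each other.

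Among the other protease inhibitors, ITIH1, ITIH2, ITIH3 and ITIH4, heavy chains of the inter-alpha-trypsin inhibitor family, averaged 1847 ± 322, 1125 ± 249, 433 ± 179.8 and 835 ± 233 TPM. A1AT (alpha-1-antitrypsin, the inhibitor of neutrophil elastase) averaged 1765 ± 381 TPM, and SPA11, a serpin, 64.1 ± 34.5 TPM. The acute phase proteins CRP (C-reactive protein, which binds bacteria and damaged cells) and LBP (lipopolysaccharide-binding protein) averaged 183 ± 141 and 261 ± 168 TPM, with an 8.98-fold and a 9.26-fold range over the 10 livers.

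**Figure D1:**
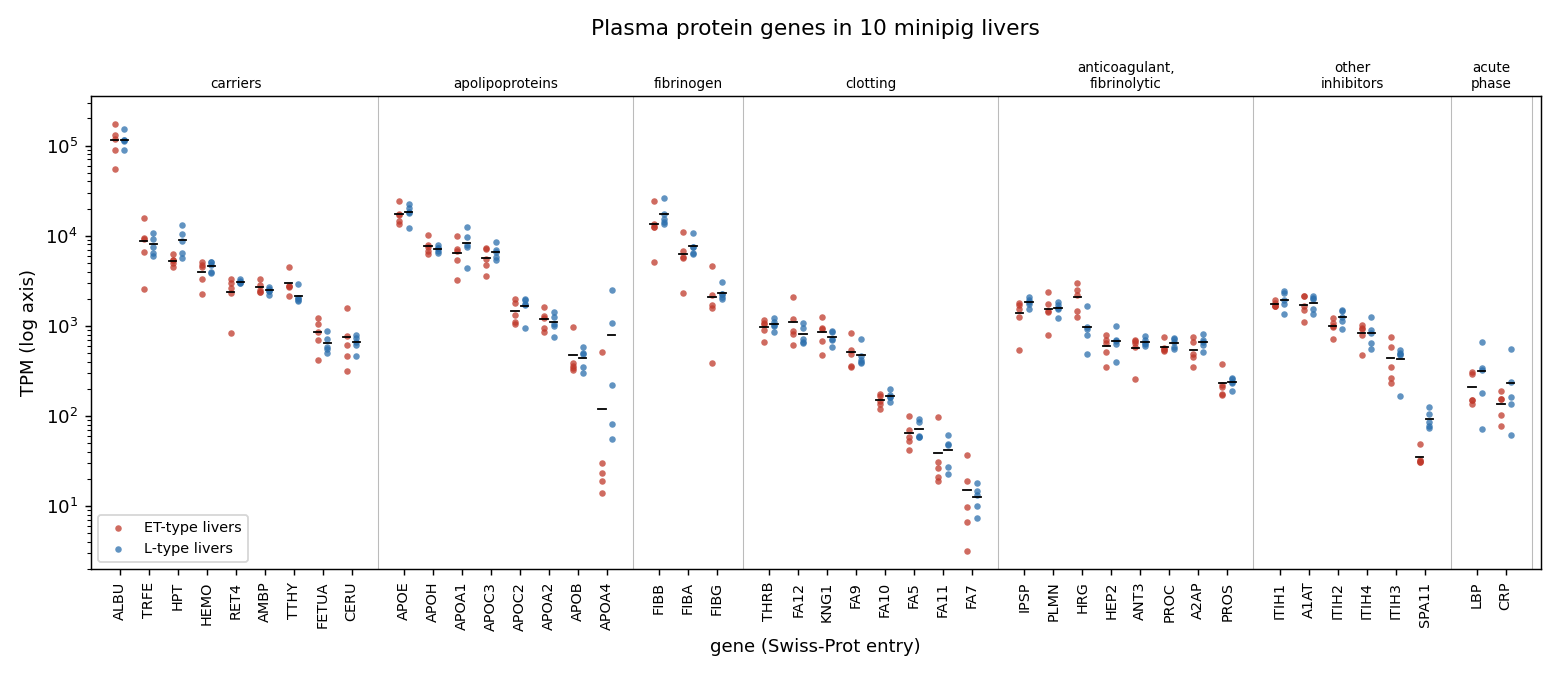
TPM on a log axis of each of the 44 genes in each of 10 livers, grouped by role, with ET-type livers (red) left of L-type livers (blue); each point is 1 animal and each black line the mean of 5. Levels run from ALBU at a mean of 115169 TPM to FA7 at 13.8 TPM, and SPA11 is the only gene whose types do not overlap.

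To ask where else the genes were expressed, all 50 libraries were fitted together with limma on log2(TPM + 1), a scale that understates differences of low genes. A gene was called in a tissue when its adjusted p was below 0.05 and its log2 difference at least 1. All 44 genes were called higher in liver than in the mean of the other 4 tissues, with the largest adjusted p at 2.63e-13, against 8.95% of 32902 genes. Since they were chosen as liver products, the direction was fixed by the choice. The difference was largest for ALBU, at 14.90 ± 0.31 (SE) on the log2 scale, followed by FIBB at 12.44 ± 0.25 and APOH at 12.28 ± 0.16. It was smallest for FA7, whose liver level rests on a weakly matched transcript, at 1.99 ± 0.18, and PROS, at 2.69 ± 0.17. For 40 genes the lowest liver was above every library of the other tissues, and for 19 of these by over 100 times. The exceptions were A2AP, KNG1 and APOA4, each with a kidney above the lowest liver, and FA7, which was higher in lung than in liver.

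**Figure D2:**
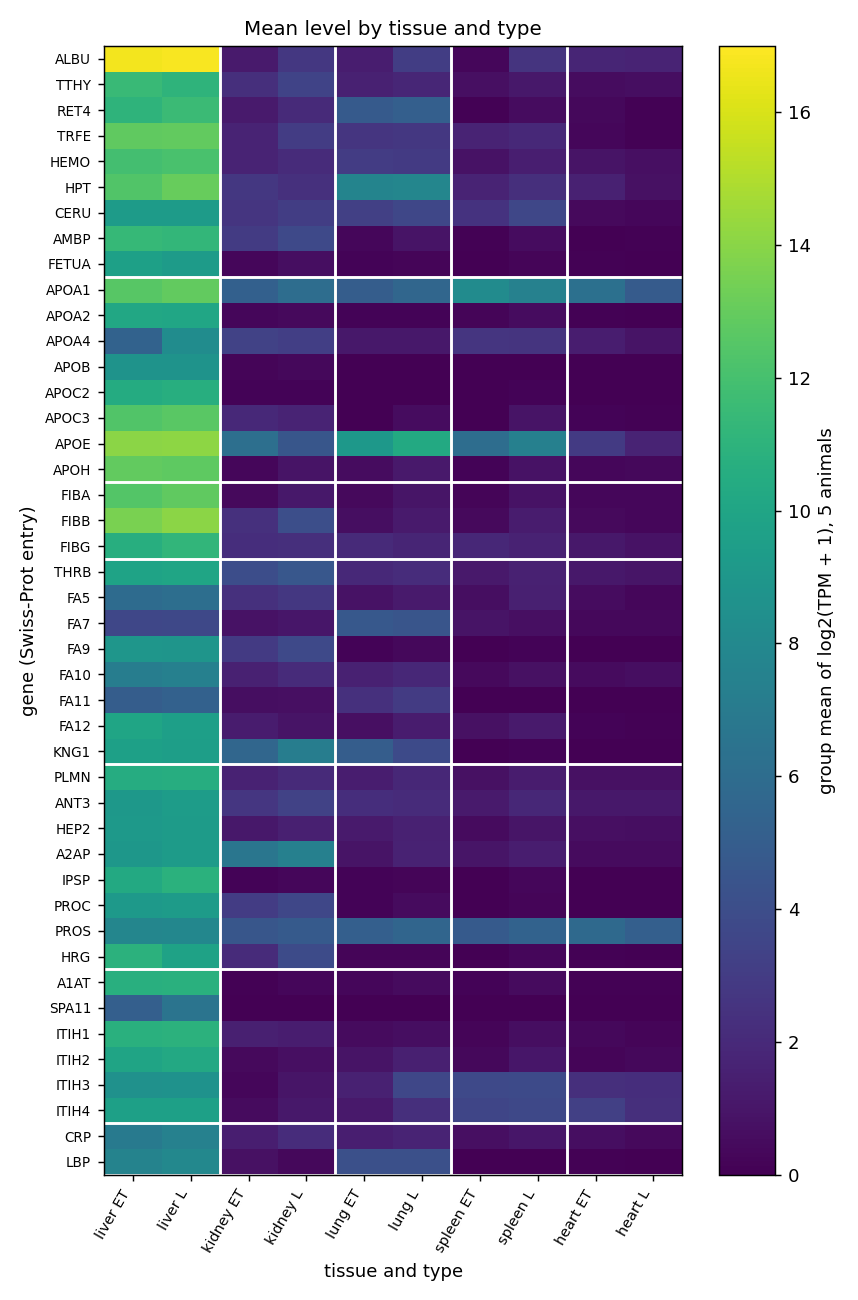
Mean of log2(TPM + 1) over 5 animals (colour) for the 44 genes (rows, in blocks by role) in the ET and L type of each tissue (columns). Liver is the brightest column pair for every gene but FA7, and brighter cells outside liver mark APOE and HPT in lung, A2AP and KNG1 in kidney, APOA1 in spleen and PROS in all tissues.

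Each of the 4 other tissues was then set against the mean of the remaining 3, with liver left out, so that these comparisons share libraries. Kidney had 13 of the 44 genes called higher, against 13.2% of all genes tested; lung had 10, against 26.3%; spleen had 3, against 9.1%; and heart had none, against 5.38%. As a share of the 44, lung, spleen and heart lay below all genes and kidney above. In all, 25 genes were called in at least 1 tissue and 19 in none. Genes never called there were ALBU, FETUA, APOA2, APOB, APOC2, APOH, FIBA, FIBG, FA10, FA12, PLMN, HEP2, IPSP, PROS, A1AT, SPA11, ITIH1, ITIH2 and CRP. The mean of ALBU, the highest liver gene, was 0.0020 to 0.0057% of its liver mean in these 4 tissues. In all 26 pairs of gene and tissue called, the level as a percentage of liver was over 10 times that of ALBU in the same tissue, but so it was, called or not, for 36 of the 44 genes in kidney, 28 in lung, 20 in heart and 19 in spleen.

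Of the 13 kidney genes 9 were of clotting, fibrinogen and their control, roles that hold 8, 3 and 8 of the 44 genes. A2AP had 4.59, 462, 165, 248 and 107 TPM in ET-type kidneys, against 166, 122, 212, 145 and 221 TPM in L-type kidneys. Every kidney, ET S0235 least, lay above the means of the other 3 tissues outside liver, 1.505 TPM in lung, 1.27 TPM in spleen and 0.393 TPM in heart. Kidney A2AP was higher by 6.09 ± 0.29 on the log2 scale (SE, limma adjusted p = 7.09e-22), and its mean was 30.9% of that in liver. KNG1 had 0.326, 348.7, 58.5, 97.8 and 95.0 TPM in ET-type kidneys, against 126, 58.6, 258, 72.6 and 483 TPM in L-type kidneys. A single kidney, ET S0235, was near 0, and the difference was 4.89 ± 0.40 (adjusted p = 1.88e-14).

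THRB was lower in kidney, with 1.26, 63.6, 19.4, 17.2 and 18.6 TPM in ET-type kidneys, against 25.5, 24.6, 37.7, 18.98 and 16.97 TPM in L-type kidneys. Apart from ET S0235 these kidneys stood above every lung, whose highest was 4.26 TPM, with a difference of 2.84 ± 0.22 (limma adjusted p = 2.85e-15). FA9 ranged widely, with 0.0288, 51.7, 2.01, 13.9 and 8.59 TPM in ET-type kidneys, against 13.2, 8.12, 2.59, 18.6 and 52.3 TPM in L-type kidneys. The types overlapped, and in both of them 1 kidney was above 50 TPM; the difference from the other tissues was 3.19 ± 0.30 (adjusted p = 1.60e-12). PROC, HRG, AMBP, TTHY and FIBB averaged 11.6 ± 6.40, 16.5 ± 26.6, 11.4 ± 5.36, 11.5 ± 17.9 and 13.2 ± 11.7 TPM in kidney (SD, n = 10), with log2 differences of 3.18, 2.85, 3.03, 1.81 and 2.52. ANT3, FA5 and APOC3 were also called, at means of 8.03, 5.31 and 3.93 TPM. Without the kidney of ET S0235 all 13 calls held, and ITIH1 and TRFE were called as well. At an identity of at least 80%, 10 kidney calls were left, and those of KNG1, HRG and APOA4 were lost.

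TRFE outside liver was highest in kidney by its mean, but that mean rested on 3 animals. The kidneys had 0.062, 63.5, 1.89, 0.637 and 0.19 TPM in ET-type kidneys, against 43.9, 3.38, 55.5, 0.776 and 0.808 TPM in L-type kidneys. ET S0242, L S0349 and L S0377 were high and the other 7 low. APOA4 in kidney, at 10.3 ± 4.55 TPM, was called too (difference 1.66 ± 0.45, limma adjusted p = 0.00178). Of that level 99.0% came from a transcript that matches 29 residues of human APOA4 at 65.5% identity and gave 0.995% of the entry in liver. With the highest liver transcript alone, the kidney call of APOA4 was lost.

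Lung held the highest levels outside liver. APOE had 427, 1175, 578, 275.99 and 545 TPM in ET-type lungs, against 1617, 889, 1151, 841 and 2402 TPM in L-type lungs. The lowest lung was above every heart, and outside lung its range was reached by the kidney of ET S0235, with 732.9 TPM, and the spleen of L S0377, with 410.1 TPM. The lung mean was 5.58% of that in liver, with a difference of 4.88 ± 0.32 from the other 3 tissues (limma adjusted p = 2.86e-18). HPT had 139, 580.1, 149, 202 and 151 TPM in ET-type lungs, against 109.7, 207, 269, 227 and 364 TPM in L-type lungs. Its lowest lung stood above the highest kidney, 16.9 TPM, and the difference was 5.82 ± 0.25 (adjusted p = 3.35e-25). RET4 had 25.6, 42.2, 9.76, 43.7 and 27.7 TPM in ET-type lungs, against 22.2, 40.5, 39.2, 38.2 and 33.5 TPM in L-type lungs. The lowest lung, ET S0276, was still above the highest kidney, 7.36 TPM (difference 4.23 ± 0.20, adjusted p = 4.46e-23).

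Host defence was represented by LBP, which presents bacterial lipopolysaccharide to immune cells. Its levels were 67.0, 13.5, 7.04, 22.9 and 8.78 TPM in ET-type lungs, against 6.57, 9.48, 15.9, 36.4 and 31.0 TPM in L-type lungs. The types overlapped, ET S0235 was highest, and the lung mean was 8.38% of that in liver (difference 3.93 ± 0.27, limma adjusted p = 4.22e-17). Clotting factors called in lung were FA7, FA11 and KNG1. FA7 had 30.8, 32.3, 25.6, 24.6 and 14.7 TPM in ET-type lungs, against 25.04, 17.2, 25.2, 22.6 and 16.3 TPM in L-type lungs. The livers had 9.81, 6.62, 19.05, 3.15 and 36.6 TPM in ET-type livers, against 18.0, 9.95, 14.5, 13.4 and 7.39 TPM in L-type livers. Livers ET S0276 and L S0349 lay within the range of the lungs, ET S0326 above every lung and the other 7 below; liver minus lung was -0.92 ± 0.23 on the log2 scale (adjusted p = 0.000391).

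FA7 in lung and in liver came from different transcripts. A transcript assembled from lung, which matches 417 residues of the bovine protein at 79.4% identity, gave 93.1% of the lung level and 0.395% of the liver level. The transcript that gave 99.6% of the liver level matches 78 residues, and with it alone the lung call was lost. FA11 averaged 5.79 ± 2.83 TPM in lung, 14.5% of the liver mean, and KNG1 28.1 ± 29.1 TPM, called above the mean of the other tissues with kidney among them. TRFE, HEMO and CERU averaged 6.32 ± 3.94, 7.07 ± 2.29 and 11.4 ± 7.55 TPM in lung and were called with smaller differences of 1.22, 1.67 and 1.33. The CERU call was lost with its highest liver transcript alone, and those of CERU and TRFE after median-ratio scaling. FA7, KNG1 and LBP have no transcript of at least 80% identity, so at that minimum 7 lung calls were left.

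Spleen expressed APOA1 at 384.8, 253, 230.3, 241.8 and 364 TPM in ET-type spleens, against 190.5, 146, 199.8, 281 and 119.8 TPM in L-type spleens. The lowest spleen held 119.8 TPM, and the difference from heart, kidney and lung was 2.32 ± 0.28 (limma adjusted p = 1.76e-09); the mean was 3.26% of that in liver. ITIH3 and ITIH4 averaged 14.5 ± 7.61 and 11.8 ± 3.72 TPM in spleen, with differences of 1.97 ± 0.26 and 1.86 ± 0.18.

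PROS was present in all 5 tissues. Heart, its highest tissue outside liver, had 44.8, 29.0, 51.6, 106 and 77.6 TPM in ET-type hearts, against 56.4, 39.2, 18.5, 43.9 and 25.3 TPM in L-type hearts. The means were 49.2 TPM in heart, 41.0 TPM in lung, 33.9 TPM in spleen and 26.2 TPM in kidney, against 233 TPM in liver. Heart exceeded the other 3 by 0.46 ± 0.18, under the difference of 1 set for a call (limma adjusted p = 0.0175), and ITIH4 by 0.71 ± 0.18 (adjusted p = 0.000571). These 2 were the only genes of the 44 with a higher heart level at an unadjusted p below 0.05. Of the 26 pairs of gene and tissue, 19 had the same highest transcript in that tissue as in liver.

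**Figure D3:**
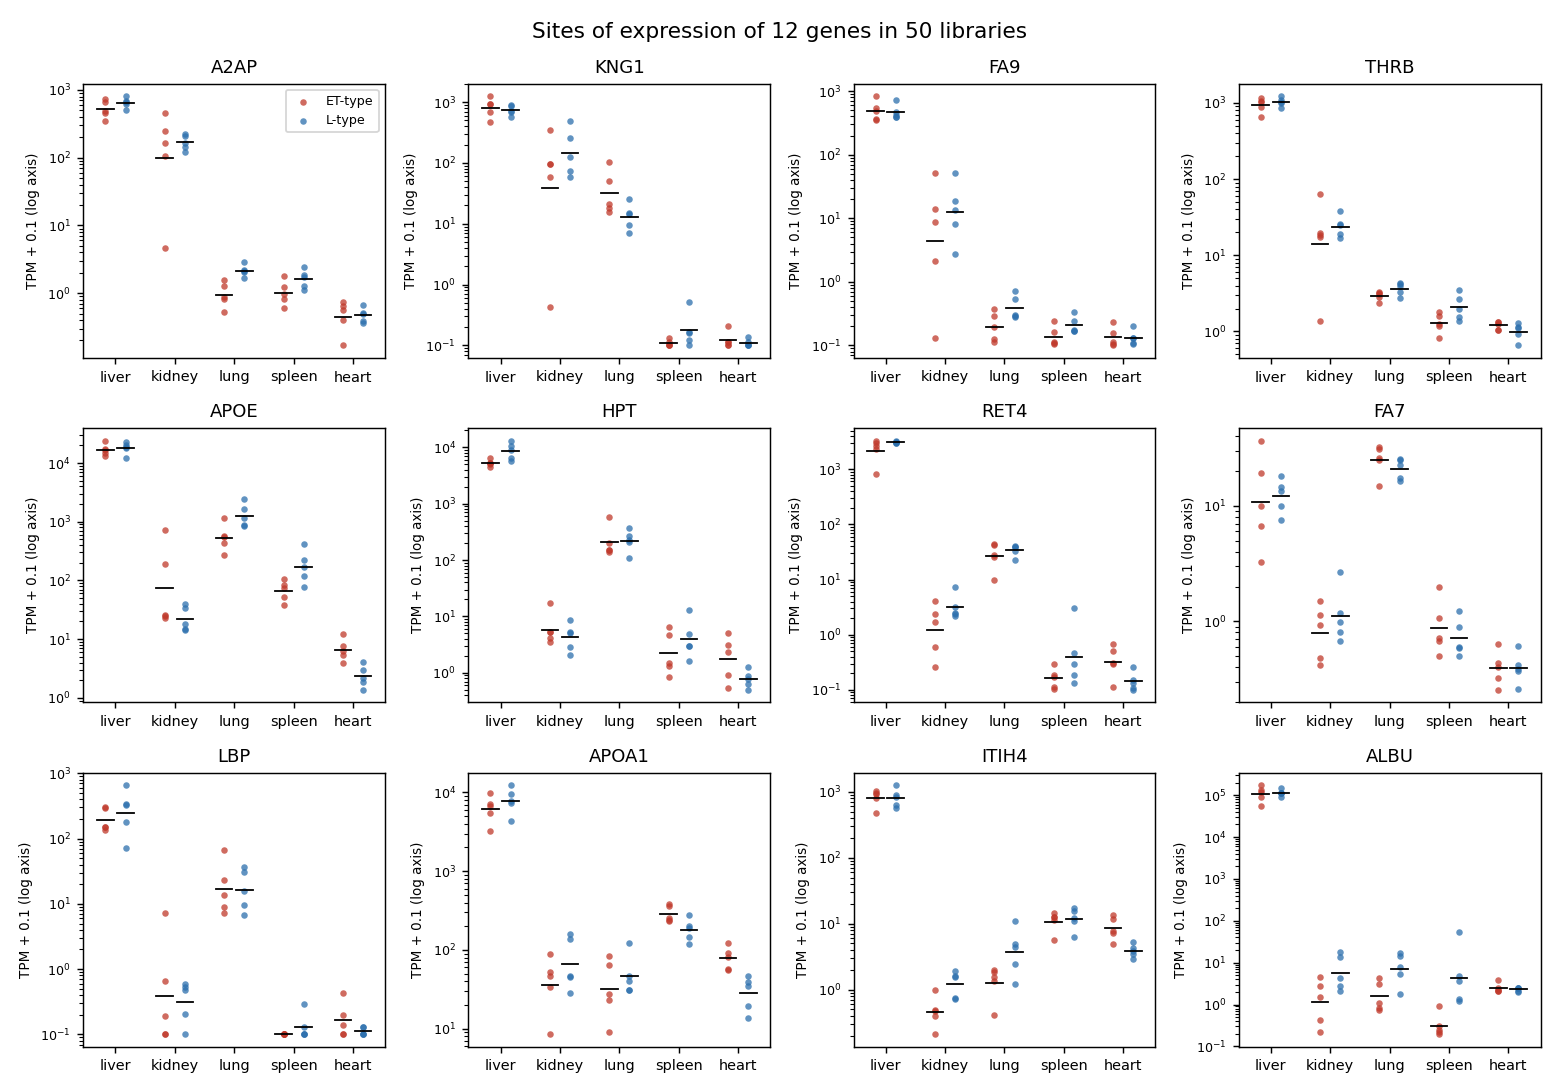
TPM + 0.1 on a log axis for 12 genes in the 5 tissues, 10 libraries each, with the ET type (red) left of the L type (blue); points are animals and black lines geometric means. A2AP, KNG1, FA9 and THRB lie higher in kidney than in spleen or heart, with 1 low ET-type kidney, APOE, HPT, RET4, FA7 and LBP are high in lung, APOA1 and ITIH4 in spleen, and ALBU reaches at most 53.1 TPM outside liver.

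Between the types, each tissue was fitted alone, 5 ET-type against 5 L-type animals, and differences are ET minus L on log2(TPM + 1). All 44 genes entered the test in liver and limma called none of them at an adjusted p below 0.05; 4 had an unadjusted p below 0.05. Of 21445 genes tested, 0.00933% were called, 2 genes, and 1412 had an unadjusted p below 0.05. The mean was higher in the ET type for 10 of the 44 genes and lower for 34, with a median difference of -0.14, against -0.06 over all genes, of which 57.4% were lower. After median-ratio scaling, and after quantile normalization, 15 of the 44 were higher and the all-gene median was 0.00. Without the liver of ET S0326, 20 were higher and 24 lower, the median was -0.04, and again none was called. ET-type and L-type livers were fully apart for 1 of the 44 genes, SPA11, against 1.08% of all genes tested.

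SPA11 had the smallest p. Its levels were 30.8, 30.6, 32.7, 48.8 and 31.2 TPM in ET-type livers, against 105, 76.4, 126, 73.9 and 86.0 TPM in L-type livers. Every ET-type liver was below every L-type liver. The difference was -1.39 ± 0.21 (SE, limma adjusted p = 0.106, lower in 5 of 5 ET-type livers). Leaving out 1 animal at a time gave an adjusted p of 0.0335 to 0.362 and differences of -1.52 to -1.28. SPA11 was called in 1 of these 10 fits, the one without ET S0309, whose level was the highest of its type (adjusted p = 0.0335, difference -1.52). The joint fit of the 50 libraries with a replicate block on animal gave an adjusted p of 1.15e-10, but it takes the spread of SPA11 mostly from libraries at or near 0 (SE 0.12, against 0.21 in liver alone), so it is not read as a call. All of SPA11 came from 1 transcript, which matches 422 residues of the human protein at 81.5% identity, and in the other tissues it reached at most 0.0873 TPM.

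HRG leaned the other way, with 2472, 2974, 1253, 2186 and 1466 TPM in ET-type livers, against 929, 1653, 799, 962 and 481 TPM in L-type livers. The highest 3 livers were of the ET type, but the types overlapped, and the difference of 1.14 ± 0.34 was not called (limma adjusted p = 0.555). HPT had 4433, 5302, 5337, 5033 and 6327 TPM in ET-type livers, against 5659, 10357, 13087, 6358 and 8805 TPM in L-type livers. ET-type livers lay close together and L-type livers spread upwards; the difference was -0.69 ± 0.27 (adjusted p = 0.689). APOA4 had 14.1, 30.1, 508, 23.2 and 18.98 TPM in ET-type livers, against 222, 2475, 54.8, 1086 and 81.4 TPM in L-type livers. Apart from S0276 the ET-type livers were below every L-type liver, and the difference of -2.91 ± 1.18 was not called (adjusted p = 0.709).

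TTHY had 2665, 2790.4, 4513, 2164 and 2791 TPM in ET-type livers, against 2895, 1912, 2026, 2010.0 and 1901 TPM in L-type livers. Both types had 1 high liver, and the difference was 0.45 ± 0.24 (limma adjusted p = 0.805). RET4, its partner, had 2620.3, 2955, 2322, 3279 and 827 TPM in ET-type livers, against 3118, 2997, 3007, 3299.5 and 3049.6 TPM in L-type livers. ET S0326 was lowest by far, and the difference of -0.51 ± 0.34 became -0.16 without it (adjusted p = 0.886 with all animals). IPSP had 1546, 1690.0, 1262, 1810.0 and 543 TPM in ET-type livers, against 2084, 1829.7, 1739, 1553 and 1928 TPM in L-type livers. Here too ET S0326 was lowest, with a difference of -0.52 ± 0.31 (adjusted p = 0.858) and of -0.22 without it.

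ITIH2 had 982, 961, 1213, 1081 and 715 TPM in ET-type livers, against 914, 1136, 1468, 1514 and 1264 TPM in L-type livers. The types overlapped and the difference was -0.34 ± 0.22 (limma adjusted p = 0.877), or -0.23 without ET S0326. A2AP had 663, 454, 492, 743 and 347 TPM in ET-type livers, against 618, 812, 688, 655 and 512 TPM in L-type livers. ET S0326 was again lowest; the difference was -0.32 ± 0.24 (adjusted p = 0.900) and -0.17 without it. For FIBB, given above, it was -0.47 ± 0.38 (adjusted p = 0.915) and -0.16 without that liver. The other 34 genes had differences between -0.51 for FIBG and 0.36 for FA12, each with an unadjusted p above that of the 10 named. No single transcript of the 44 genes was called either: 119 were tested, with a lowest adjusted p of 0.191.

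**Figure D4:**
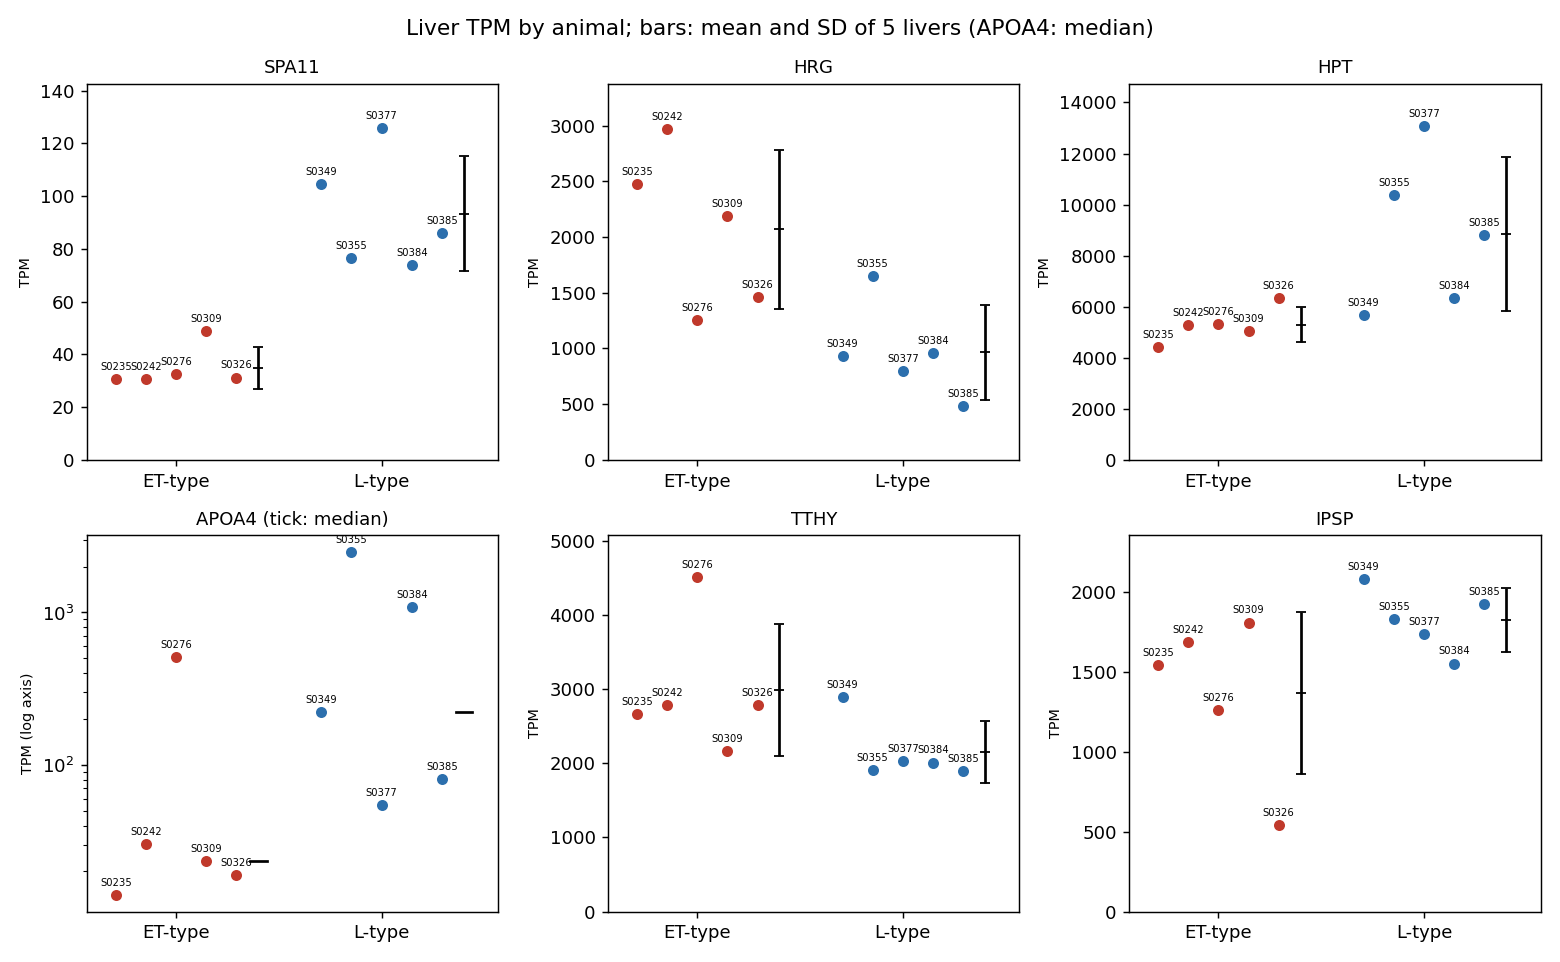
Liver TPM of 6 genes by animal, ET type (red) left of L type (blue), with bars for the mean and SD of 5 livers; APOA4 is on a log axis with a tick at the median. SPA11 separates the types, 30.6 to 48.8 TPM in the ET type against 73.9 to 126 TPM in the L type, while the other 5 genes overlap.

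By role, none of the 9 carriers, 8 apolipoproteins, 3 fibrinogen chains, 8 clotting factors, 8 anticoagulant and fibrinolytic genes, 6 other inhibitors and 2 acute phase genes was called. Median differences were -0.06, -0.13, -0.47, -0.12, -0.16, -0.11 and -0.40 in that order. The median SE within a role was 0.23 to 0.50. The sums over a role overlapped too: fibrinogen took 0.778 to 3.98% of TPM in ET-type livers and 2.17 to 3.95% in L-type livers, and the apolipoproteins 3.10 to 5.53% in the ET type and 3.24 to 5.18% in the L type.

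Other genes of the same pathways gave no call between types in liver. Of 12 further genes of clotting and fibrinolysis tested, 2 had an unadjusted p below 0.05. VKOR1, the enzyme that recycles vitamin K, averaged 163.2 ± 51.2 TPM in ET-type livers and 261 ± 67.1 TPM in L-type livers (SD, n = 5 each; difference -0.70, limma adjusted p = 0.689). VWF, the platelet adhesion factor, averaged 2.91 ± 1.48 TPM in the ET type and 6.55 ± 3.53 TPM in the L type (-0.90, adjusted p = 0.718). Of 13 further genes of lipoprotein metabolism, APOA5, a regulator of plasma triglyceride, averaged 72.1 ± 50.4 TPM in the ET type and 379 ± 166 TPM in the L type (-2.51, adjusted p = 0.234). ABCA1, which exports cholesterol from cells, averaged 18.2 ± 12.6 TPM in the ET type and 7.82 ± 3.82 TPM in the L type (1.03, adjusted p = 0.712).

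Of 14 further plasma proteins, THBG and AFAM had the smallest p. THBG, which carries thyroxine, averaged 90.5 ± 41.5 TPM in ET-type livers and 43.5 ± 28.3 TPM in L-type livers (SD, n = 5 each; difference 1.18, limma adjusted p = 0.653). AFAM, the albumin relative afamin, averaged 906 ± 393 TPM in the ET type and 464 ± 130.1 TPM in the L type (0.88, adjusted p = 0.689). Among 18 regulators of liver genes and of the acute phase, SOCS3, a brake on cytokine signals, averaged 1.89 ± 0.531 TPM in the ET type and 7.21 ± 6.12 TPM in the L type (-1.21, adjusted p = 0.662). CEBPB, a transcription factor of the acute phase, averaged 52.5 ± 21.0 TPM in the ET type and 81.1 ± 19.04 TPM in the L type (-0.68, adjusted p = 0.751). By tissue, 5 of 14 further clotting genes, 11 of 13 lipoprotein genes, 14 of 14 plasma proteins and 14 of 18 regulators were called higher in liver than in the other 4 tissues; 7 of the clotting genes and 1 lipoprotein gene were called lower.

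Outside liver fewer of the 44 genes reached the mean of 1 TPM needed for a test: 29 in kidney, 29 in lung, 19 in spleen and 10 in heart. Limma called none in kidney, against 0% of 27303 genes, with 3 of them and 2301 genes at an unadjusted p below 0.05. It called none in lung, against 0.213%, with 8 of 29 below 0.05 unadjusted beside 16.2% of all genes, and none in heart, against 0.0238%, with 4 of 10 below 0.05 unadjusted beside 22.2% of all genes. With all tissues in 1 fit and the animal as replicate block, 2 were called in kidney, FIBB (-1.73, adjusted p = 0.0246) and HRG (-1.82, 0.0355), against 3.46% of all genes. Without the kidney of ET S0235, which held the lowest level of both, that fit called none of the 44, with -1.29 for FIBB (adjusted p = 0.149) and -1.29 for HRG (adjusted p = 0.195). In lung it called 2, ITIH3 (-2.05, adjusted p = 0.00524) and ITIH4 (-1.11, adjusted p = 0.0487), against 1.97% of all genes. The types overlapped for both, and in lung alone limma gave adjusted p of 0.131 and 0.233. Their SE was 0.56 and 0.42 in lung alone, against 0.44 and 0.31 in the joint fit, which takes its spread from all tissues. In spleen the fit of that tissue called 3, all lower in the ET type, against 22.2% of genes, and the median spleen gene was itself at -0.47. Red cell markers, 3 in all, summed to 110048 to 335770 TPM in ET-type spleens, against 5475 to 149587 TPM in L-type spleens, and lymphocyte markers to 59.5 to 138 TPM in the ET type and 98.3 to 490.3 TPM in the L type. Their part in the spleen differences was not tested.

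CERU in spleen had 4.73, 5.21, 3.06, 8.65 and 3.33 TPM in ET-type spleens, against 10.04, 10.1, 11.3, 8.47 and 17.6 TPM in L-type spleens. All ET-type spleens but S0309 were below the L type (difference -1.09 ± 0.27, limma adjusted p = 0.0273). APOE had 107, 74.4, 38.5, 82.1 and 52.7 TPM in ET-type spleens, against 76.3, 121, 410.1, 169 and 219.7 TPM in L-type spleens. The difference was -1.33 ± 0.40 (adjusted p = 0.0378, or 0.0982 with the replicate block), with overlap. ALBU had 0.145, 0.123, 0.214, 0.825 and 0.0937 TPM in ET-type spleens, against 1.23, 3.55, 53.1, 1.1004 and 4.71 TPM in L-type spleens. Every ET-type spleen was lower (difference -2.21 ± 0.71, adjusted p = 0.0444), and L S0377 was far above the rest. The share of all spleen genes without overlap was not counted. At an unadjusted p below 0.05, limma had 44.2% of all spleen genes. ET-type spleens averaged 0.28 TPM of ALBU, against 12.7 TPM in L-type spleens, or 2.65 TPM without L S0377. With the replicate block ALBU and CERU stayed called (limma adjusted p = 0.0106 and 0.0392). That fit also called FA5 (-0.84, adjusted p = 0.0414) and ITIH2 (-0.67, adjusted p = 0.0342) in spleen. Its share of all spleen genes called is not given here. Relative to the median spleen gene the differences were -0.62 for CERU, -0.86 for APOE and -1.74 for ALBU, and after median-ratio scaling none was called, with adjusted p of 0.0715, 0.134 and 0.113. Leaving out 1 animal at a time kept the call of CERU in 6 of 10 fits, APOE in 4 and ALBU in 3. Without ET S0276, ET S0326, L S0377 or L S0385 none of the 3 was called; APOE and ALBU were also lost without L S0384 or ET S0242, and ALBU without ET S0235.

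In heart the APOA1 levels did not overlap, with 55.2, 56.6, 91.8, 81.6 and 123 TPM in ET-type hearts, against 39.2, 47.2, 19.3, 35.2 and 13.8 TPM in L-type hearts (difference 1.44 ± 0.34, limma adjusted p = 0.0863). Each ET-type heart was above each L-type heart, though short of the threshold. The share of all heart genes without overlap was not counted, so the separation is not read as particular to APOA1. At an unadjusted p below 0.05, limma had 22.2% of all heart genes. Leaving out 1 animal at a time gave APOA1 an adjusted p of 0.0306 to 0.203. It was called only without ET S0242, where APOE and ITIH4 were called as well, in a fit that called 10.2% of all genes. With the replicate block the adjusted p of APOA1 was 0.154. Traces of ALBU averaged 1.78 and 1.95 TPM in ET-type kidneys and lungs, against 7.95 and 9.21 TPM in L-type kidneys and lungs (adjusted p = 0.590 and 0.167).

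Whether a type difference varied between tissues was tested as an interaction in 1 fit of the 50 libraries that kept the animal as a block. It was called for 4 of the 44 genes, against 6.21% of 32902 genes. Of these SPA11 (limma adjusted p = 5.51e-08) entered the fit through liver alone and was at or near 0 elsewhere, so its p restates the liver values and does not compare tissues. APOE had positive differences in heart and kidney, 1.21 and 1.71, negative ones in lung and spleen, -1.25 and -1.33, and at -0.08 in liver (interaction adjusted p = 0.0137). None of these 5 differences was called by itself in that fit. The lung values of APOE are given above, and the kidneys had 733, 26.1, 189, 24.5 and 23.3 TPM in ET-type kidneys, against 33.5, 14.9, 17.9, 38.9 and 14.2 TPM in L-type kidneys. ET S0235, the kidney with the high lymphocyte markers, was by far the highest, and without it the interaction had an adjusted p of 0.00517. That fit called more genes in all than the fit with every library, so the lower p is not read as particular to APOE.

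For ITIH4 the differences were 0.97 in heart, -1.11 in lung and -0.63 in kidney, with -0.12 in spleen and -0.01 in liver (limma interaction adjusted p = 0.0124). Heart had 4.84, 7.22, 13.3, 7.68 and 11.5 TPM in ET-type hearts, against 4.23, 5.10, 2.79, 3.74 and 3.42 TPM in L-type hearts, and the types overlapped. HRG had 1.14 in liver and -1.82 in kidney (interaction adjusted p = 0.0438). Without the kidney of ET S0235, where HRG was at 0.0223 TPM, that adjusted p was 0.0621, while ITIH3 passed the threshold (0.0350, against 0.0505 with all libraries). The fit without that kidney called more genes in all, so the ITIH3 call is not read as particular to that gene.

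Finally, partners in plasma were compared over the 10 livers on log2(TPM + 1), 8 pairs in all, with permutation p adjusted over the 8. The fibrinogen chains moved together. FIBA and FIBG had a Pearson r of 0.98 (permutation p = 1e-05, the smallest that 100000 resamples can give; adjusted p = 8.0e-05) and a Spearman rho of 0.98 (p = 4.0e-05). FIBA and FIBB had an r of 0.98 (permutation p = 1.2e-04, adjusted 4.8e-04) and a rho of 0.89 (p = 0.00108), and FIBB and FIBG an r of 0.96 (permutation p = 1.8e-04, adjusted 4.8e-04) and a rho of 0.93 (p = 2.7e-04). Without the 2 livers farthest from the median of the first chain, r was 0.96, 0.93 and 0.95 in the same order. With type means removed it was 0.98, 0.98 and 0.96. Over all 946 pairs of the 44 genes the median r was 0.21, with quartiles at -0.13 and 0.51; all of these share libraries and their totals.

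Chain ratios were steady for FIBA, which stood at 0.459 ± 0.0378 of FIBB (SD, n = 10), and less so for FIBG, at 0.139 ± 0.0306, with the lowest ratio, 0.0757, in ET S0326. FIBA had 6843, 5617, 5818, 10955 and 2301 TPM in ET-type livers, against 6477, 10581, 6189, 7399.9 and 7479.9 TPM in L-type livers. FIBG had 2199, 1718, 1586, 4629 and 386 TPM in ET-type livers, against 2066, 3044, 1985, 2268 and 2234 TPM in L-type livers. In both, ET S0309 was the highest liver and ET S0326 the lowest. The other 5 pairs were not called. RET4 with its partner TTHY had an r of -0.35 (permutation p = 0.232, adjusted 0.38), APOA1 with APOC3 0.40 (p = 0.247, adjusted 0.38), CRP with LBP 0.37 (p = 0.285, adjusted 0.38) and HPT with LBP 0.19 (p = 0.596, adjusted 0.681). The pair of ITIH3 and ITIH4 had a rho of -0.07 (permutation p = 0.867, adjusted 0.917). Without the 2 farthest livers HPT and LBP had an r of -0.78 (permutation p = 0.0227, adjusted 0.0454), so that pair turned direction with 2 livers.

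**Figure D5:**
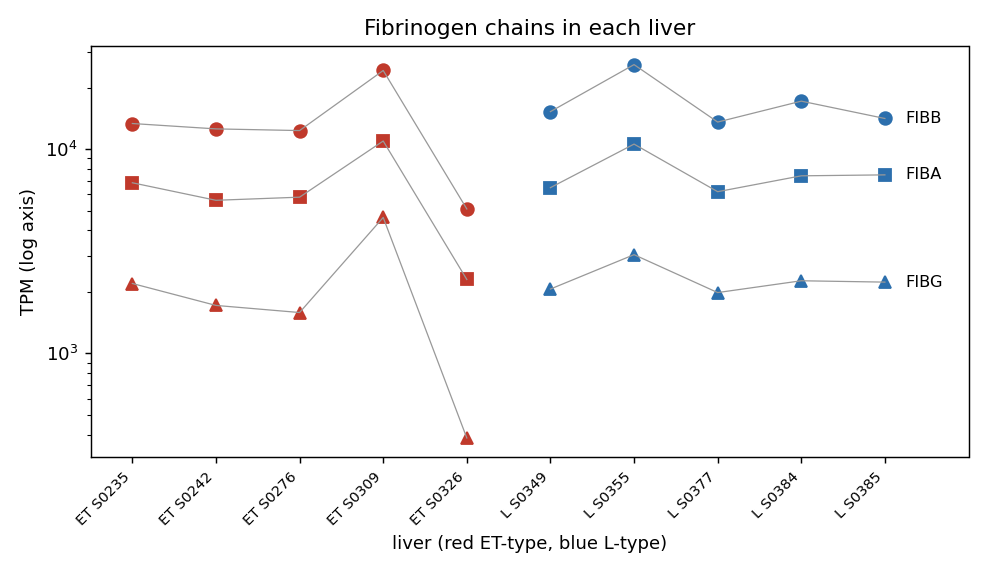
TPM on a log axis of FIBB (circles), FIBA (squares) and FIBG (triangles) in each of the 10 livers, ET type (red) left of L type (blue); grey lines join the points of a chain within a type and carry no order. All 3 chains are highest in ET S0309 and L S0355 and lowest in ET S0326, where FIBG drops to 386 TPM.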

How the data were processed

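Total RNA was made into libraries with a stranded mRNA kit, per the labels' protocols. The deposited table holds TPM for 57085 assembled transcripts in 50 libraries, with the authors' best Swiss-Prot match of each transcript. Per the submitters' processing notes, Trimmomatic 0.36 and Salmon 1.10.0 were among the tools and Sscrofa11.1 was the named build; the assembler is not given in the sources used here. TPM keeps no read depth, so the depth behind each value is unknown and no counting interval is given.

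TPM was summed over the transcripts of each entry, and transcripts without an entry (63.9% had one) stayed single genes, 35133 in all. Differences were tested with limma 3.58.1 (R 4.3.3; empirical Bayes with a mean trend) on log2(TPM + 1) wherever a gene averaged 1 TPM or more in the tissue (in any tissue, for the fits of all libraries), with Benjamini-Hochberg adjustment over all genes tested and a threshold of 0.05; tissue contrasts also needed a log2 difference of at least 1. Each type comparison used the 10 libraries of its tissue, and tissue contrasts used all 50. Because each animal gave all 5 tissues, a fit with the animal as replicate block (statmod 1.5.0, within-animal correlation 0.114) was run beside them and is the one used for the interaction. Correlations used 100000 permutations (scipy 1.17.1). The steps were tested on simulated data. Alternatives changed the pseudocount, filter, scaling, transcript choice, identity minimum and the animals included.

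The genes given animal by animal were the 5 highest in liver, the 10 with the smallest p between types in liver and the 12 with the highest mean in another tissue; the fibrinogen chains and other genes were added after their values were seen. The members and lists were chosen with earlier results of these data known.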

Additional observations from a re-analysis of the deposited data

Results flagged for a closer look

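In 9 of 52 groups of 5 samples checked, the highest sample stood apart from the rest by Dixon's criterion at 95%. Chance gives about 1 group in 20 only where groups are independent and normally spread. These groups share libraries, and some genes were chosen for a high mean in that tissue. The 9 of 52 can thus not be set against that rate. In liver, SPA11 was at 48.8 TPM in ET S0309, against a next value of 32.7 TPM in its type, and APOA4 at 508 TPM in ET S0276, against 30.1 TPM. TTHY was at 4513 TPM in ET S0276, with the next ET-type liver at 2791 TPM, and at 2895 TPM in L S0349, with the next L-type liver at 2026 TPM. The kidney of ET S0242 stood apart for 3 genes, KNG1 at 348.7 TPM (next 97.8 TPM), FA9 at 51.7 TPM (next 13.9 TPM) and TRFE at 63.5 TPM (next 1.89 TPM). In lung, HPT was at 580.1 TPM in ET S0242 (next 201.8 TPM) and LBP at 67.0 TPM in ET S0235 (next 22.9 TPM).

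The interaction test called 4 of the 44 genes, against 6.21% of all genes tested. For 3 of them the type difference varied between tissues, with limma adjusted p of 0.0124 for ITIH4, 0.0137 for APOE and 0.0438 for HRG. SPA11 passed as well (5.51e-08), but it was at most 0.0873 TPM outside liver, so that p does not compare tissues. That of HRG was 0.0621 without the kidney of ET S0235. What lies behind these differences was not tested.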

How the results depend on the processing

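Scaling outside liver, the block fit without the kidney of ET S0235 and the use of the highest liver transcript alone were tried after seeing the data. All 44 genes were called higher in liver under each alternative that kept every entry, and all 37 with a transcript of at least 80% identity; with transcripts in place of entries, 4803 genes and 117 of the 44 genes' transcripts were called. Between types in liver, genes called numbered 2, or 1 with a mean of at least 5 TPM, 4 with transcripts and 322 with the replicate block, where 1 of the 44 passed (SPA11, with its spread from tissues at or near 0); leaving out 1 animal gave 2 to 15 genes and 0 to 1 of the 44. IPSP turned to 0.036 with an identity of at least 80%. Second sites in heart numbered 0, but 1 with a pseudocount of 0.1, without mitochondrial and haemoglobin transcripts, with transcripts or with the highest liver transcript, and 2 with median-ratio scaling (3440 genes; 2815 with transcripts). Kidney had 13, or 21 with a pseudocount of 0.1, 20 with transcripts and 10 with an identity of at least 80%; spleen had 3, or 5, 7 and 3; lung had 10, or 13 with a pseudocount of 0.1, 7 with an identity of at least 80% and 8 after median-ratio scaling (4449 genes). Type differences with the replicate block numbered 496 genes in heart, 1139 in kidney (2 of the 44, and 0 without ET S0235) and 648 in lung (2 of the 44). Those 2 were not called in lung alone. In spleen the replicate block called ALBU, CERU, FA5 and ITIH2 of the 44 and lost APOE. Spleen after median-ratio scaling had 529 genes and 0 of the 44. Leaving out 1 animal gave 0 to 2162 genes in heart (0 to 3 of the 44; the highest without ET S0242), 0 to 3 in kidney, 4 to 213 in lung and 41 to 6179 in spleen (0 to 4 of the 44; 41 genes without L S0377). The interaction had 2044 genes, 835 with no replicate block and 4357 without the kidney of ET S0235. Without the 2 farthest livers r was -0.047 for APOA1 with APOC3 and -0.78 for HPT with LBP. The cause was not tested. Depth is unknown, and 5 animals per type limit what could be called.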
